A study of Mus musculus with 36 samples.

Results

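The mRNAs of 8 genes of cholesterol synthesis and its control were followed through P-bodies, cytoplasm and polysomes of mouse cells. Of these genes, Hmgcs1, Idi1, Fdft1, Sqle, Lss and Cyp51 encode enzymes of the pathway, and Srebf2 and Insig1 encode its regulators. The genes were chosen by symbol, with earlier results of these data known. All 8 were found among the 25239 genes of the P-body and cytoplasm counts, the 25229 genes of the polysome counts and the 48440 genes of the Ago2 knockout (KO) counts. P-bodies purified by sorting and the matching cytoplasm were sequenced, with 2 libraries a group, from embryonic stem (ES) cells in the naive and the primed state, from embryonic fibroblasts (MEFs), and from day 3 of the reprogramming of MEFs with or without knockdown (KD) of Nudt21. The same fractions of naive Ago2 KO ES cells had 2 libraries each. Polysome-bound and total RNA came from control and DDX6 degron ES cells, with 3 libraries a group, which makes 36 libraries in 16 groups.

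P-bodies, condensates in the cytoplasm that hold untranslated mRNA and its decay factors, were marked in all sorted cells by a GFP-tagged LSM14A protein delivered by lentivirus. The ES cells were v6.5, from a C57BL/6 and 129S4Sv/Jae cross. Naive ES cells grew without serum in N2B27 with the inhibitors PD0325901 and CHIR99021 and with LIF. Primed ES cells were made from them with activin A, bFGF and a serum replacement. MEFs grew in serum. Those that were reprogrammed came from embryos with a doxycycline-inducible cassette of Oct4, Klf4, Sox2 and Myc, and received doxycycline, LIF and ascorbic acid. Thus cell type and medium cannot be told apart in any comparison of ES cells with MEFs. The same holds for ES cell state and medium between naive and primed cells, and for reprogramming and medium between day 3 cells and MEFs. Nudt21 KD used a short hairpin RNA, and Ago2 KO cells were expanded from sorted single cells after a paired CRISPR deletion in v6.5 cells. In the DDX6 degron line, made from single-cell clones of naive GFP-LSM14A ES cells, both alleles of Ddx6 carried an FKBP12 tag with the F36V change, through which dTAG-13 leads to loss of the protein. The cells called DDX6 degron were given dTAG-13, and control cells were of the same tagged line and given DMSO. By the study's methods, harvest followed within hours of dTAG-13, so DDX6 loss here means acute loss.

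Cholesterol is built from acetyl-CoA through mevalonate. HMGCS1 makes the HMG-CoA from which mevalonate is formed, and IDI1 interconverts the isoprenoid building blocks isopentenyl and dimethylallyl diphosphate. FDFT1, also called squalene synthase, commits the pathway to sterols, SQLE adds the first oxygen to squalene, LSS closes the rings to give lanosterol, and CYP51 removes a methyl group from lanosterol. SREBF2 encodes SREBP2, a membrane-bound transcription factor that is cut and released to the nucleus when sterols are scarce. INSIG1 holds the complex of SREBP2 and its escort SCAP in the endoplasmic reticulum when sterols are abundant, and it is itself a target of the released factor.

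By the GENCODE M21 annotation of mm10, Idi1 lies at chr13:8885501-8892451 and Hmgcs1 at chr13:119690379-119708260. Cyp51 lies at chr5:4081145-4104746 and Insig1 at chr5:28071363-28078662. Srebf2 lies at chr15:82147181-82205379 and Sqle at chr15:59315077-59331192. Lss lies at chr10:76531588-76557138 and Fdft1 at chr14:63145150-63179578. Fdft1 and Cyp51 are on the minus strand, and their 3′ ends overlap exons of Ctsb and Akap9 on the other strand. Exons of Hmgcs1, Idi1 and Lss overlap noncoding or unconfirmed transcripts on the other strand, Gm48342, Gm48574 and 4930483K19Rik. The polysome and total RNA libraries were made with a directional kit; for the other libraries no statement on strand was found, so reads from these overlaps cannot be told apart there.

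Promoters of RefSeq genes, 250 bases before to 50 bases after the start, were given for 6 of the 8 genes on GRCm38.p6. Fdft1 and Sqle had no entry. The promoters of Hmgcs1 and Idi1 are shown because their mRNAs were P-body-enriched in naive ES cells, and those of Lss and Insig1 because their mRNAs rose in total RNA after DDX6 loss. They span chr13:119690101-119690400, chr13:8885356-8885655, chr10:76531355-76531654 and chr5:28071162-28071461, all on the plus strand. Capitals mark matches on either strand to TCACNCCAC, the core of a sterol regulatory element, to CCAAT, bound by NF-Y, and to GGGCGG, bound by SP1.
Hmgcs1: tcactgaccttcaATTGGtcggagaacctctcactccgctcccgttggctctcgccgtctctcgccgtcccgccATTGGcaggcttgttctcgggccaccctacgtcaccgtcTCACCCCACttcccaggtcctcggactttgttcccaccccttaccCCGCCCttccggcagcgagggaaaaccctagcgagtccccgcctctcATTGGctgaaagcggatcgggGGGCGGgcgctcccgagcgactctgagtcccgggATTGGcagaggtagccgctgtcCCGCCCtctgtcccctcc
Idi1: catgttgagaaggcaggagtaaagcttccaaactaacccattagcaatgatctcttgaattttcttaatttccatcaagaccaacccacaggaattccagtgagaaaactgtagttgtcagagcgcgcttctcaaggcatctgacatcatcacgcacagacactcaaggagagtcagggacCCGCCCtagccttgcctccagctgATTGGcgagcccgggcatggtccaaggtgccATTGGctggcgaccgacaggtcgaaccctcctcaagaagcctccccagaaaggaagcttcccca
Lss: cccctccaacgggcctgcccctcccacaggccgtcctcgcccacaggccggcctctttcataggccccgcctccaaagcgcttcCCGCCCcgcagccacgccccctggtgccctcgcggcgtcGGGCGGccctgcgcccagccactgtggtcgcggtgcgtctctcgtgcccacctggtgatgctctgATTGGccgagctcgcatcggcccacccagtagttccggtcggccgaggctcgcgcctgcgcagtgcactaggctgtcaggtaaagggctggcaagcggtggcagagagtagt
Insig1: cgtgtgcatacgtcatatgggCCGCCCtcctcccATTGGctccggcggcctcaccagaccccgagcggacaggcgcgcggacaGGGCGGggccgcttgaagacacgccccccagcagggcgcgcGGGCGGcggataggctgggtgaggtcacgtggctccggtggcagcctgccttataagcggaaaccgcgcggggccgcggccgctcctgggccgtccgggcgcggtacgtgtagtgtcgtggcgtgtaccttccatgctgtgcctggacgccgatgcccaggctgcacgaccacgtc
The sterol element core was matched only in Hmgcs1 among these 6 promoters, as TCACCCCAC at position -137 from the start, and it was present in 1.24% of all 32851 promoters of that length. CCAAT was matched in all 6 promoters, against 37.4% of all promoters, and GGGCGG in all 6, against 35.7%. Among 54 promoters of the other pathway genes, 30 held CCAAT and 34 held GGGCGG. A match is a description of the letters and does not show that a factor binds.

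Libraries of ES cell fractions held 6769731 to 12772246 reads assigned to genes, those of MEFs and day 3 cells 19384742 to 31185874 reads, polysome and total RNA libraries 13308782 to 29362195 reads, and Ago2 KO libraries 15624401 to 17486268 reads. Levels are CPM, the reads of a gene relative to the total of its library, scaled by TMM over all libraries of a table. Nudt21 was at 4.87 to 5.94 CPM in the 4 KD libraries against 88.9 to 110 CPM in the day 3 controls, and Ago2 was at 2.54 to 4.83 CPM in the KO libraries. Ddx6 mRNA is no check of a degron, which acts on the protein. The 6 naive markers summed to 1680 to 2000 CPM in naive libraries and 104 to 139 CPM in primed libraries, and the 6 MEF markers summed to 9140 to 30100 CPM in MEF libraries against 15.8 to 78.1 CPM in ES cell fractions. Markers of other cells that a MEF culture could hold summed to 97.2 CPM in MEF P-body replicate 2, against 7.42 CPM in replicate 1 and at most 0.611 CPM in the MEF cytoplasm. The same markers summed to 1100 to 2440 CPM in naive and 700 to 1850 CPM in primed ES cell libraries, so they do not mark such cells alone. Their part in the MEF results was not tested. Nuclear RNAs, 3 in number, summed to 5240 and 7290 CPM in MEF P-bodies against 1120 and 1190 CPM in MEF cytoplasm, and their part in the MEF results was not tested either. In naive cells they were also higher in P-bodies, at 599 and 571 CPM against 196 and 259 CPM in cytoplasm, whereas in primed cells they were lower, at 559 and 512 CPM against 872 and 700 CPM, and their part in the ES cell results was not tested. Over genes, the log2 difference between replicates had its largest standard deviations (SD) in Ago2 KO cytoplasm (0.645), naive cytoplasm (0.513) and day 3 control P-bodies (0.503).

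P-body enrichment is given as the log2 ratio of P-body to cytoplasm with its standard error (SE) from the quasi-likelihood test of edgeR, and a gene was called where the p adjusted over all tested genes was under 0.05. These are relative amounts within a fraction, so more RNA of a gene per cell and less RNA of other genes cannot be told apart. By the study's methods, the fraction called cytoplasm was a resuspended pellet of the lysate after removal of nuclei. P-bodies were sorted from it, so it included them, and what stayed in the supernatant was left out.

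In naive ES cells, 3 of the 8 mRNAs were enriched in P-bodies and none was depleted, where 22.6% of all tested genes were called enriched and 15.4% depleted. The 3 were Idi1, Hmgcs1 and Cyp51. In the cytoplasm Idi1 was at 51.9 and 43.6 CPM, and P-bodies held 177 and 171 CPM, so every P-body library was above every cytoplasm library. Its enrichment was 1.87 ± 0.13 on the log2 scale (3.65-fold, adjusted p = 0.0005309). Hmgcs1, at the entrance of the pathway, went from 405 and 426 CPM to 707 and 675 CPM, a log2 ratio of 0.73 ± 0.095 (adjusted p = 0.003365). Cyp51 went from 250 and 177 CPM to 323 and 337 CPM (0.63 ± 0.18, adjusted p = 0.04173). The groups of these 3 mRNAs did not overlap, but the cytoplasm replicates of Cyp51 were further apart than its P-body replicates. How many of all tested genes had groups apart was not counted for the P-body comparisons.

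The other 5 mRNAs were not called in naive ES cells. Sqle had a log2 ratio of 0.08 (95% interval -0.30 to 0.46) and Lss of -0.07 (-0.64 to 0.50), and for both the 2 groups overlapped. For Fdft1 (-0.24 ± 0.1), Srebf2 (-0.33 ± 0.15) and Insig1 (-0.19 ± 0.099), both P-body libraries were below both cytoplasm libraries, by less than the test could call. The naive cytoplasm replicates differed for several of these mRNAs, at 164 and 104 CPM for Lss and 619 and 467 CPM for Srebf2. With 1 library left out, Lss ran from -0.35 to 0.30 and Srebf2 from -0.50 to -0.11, while Idi1 stayed between 1.76 and 1.99. Which of the other mRNAs were called changed with the library, and so did the number called over all tested genes. Of the 20 P-body and cytoplasm libraries, the number with a fractional count ran from 3 for Cyp51 to 17 for Lss and was 15 for Idi1, which has a paralog, Idi2, on the same chromosome; how reads shared between genes were divided is not given.

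In primed ES cells the mRNAs leaned the other way: 5 were depleted from P-bodies and 1, Idi1, was enriched, where 24.2% of tested genes were depleted and 26.5% enriched. Insig1 was at 112 and 118 CPM in the cytoplasm and 60.9 and 59.1 CPM in P-bodies (-0.96 ± 0.074), close to the ratio of Lss, which went from 223 and 234 CPM to 114 and 126 CPM (-0.95 ± 0.066). Srebf2 was depleted by a log2 ratio of -0.83 ± 0.051, Sqle of -0.60 ± 0.053 and Cyp51 of -0.53 ± 0.057. Idi1 was at 120 and 117 CPM in the cytoplasm and 161 and 147 CPM in P-bodies, an enrichment of 0.35 ± 0.069 (adjusted p = 0.0009519) that was not called in a fit of all groups of the table together (adjusted p = 0.0588). Hmgcs1 (0.07, 95% interval -0.03 to 0.16) and Fdft1 (-0.14, -0.28 to -0.01) were not called. The groups of all 8 mRNAs were apart in primed cells, but the share of all tested genes in that state was not counted.

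The difference in enrichment between naive and primed cells was tested in its own contrast over the 8 libraries. It was above 0 and called for 5 of the 8 mRNAs, and for none below 0, against 13.9% and 11.4% of tested genes. Idi1 differed by 1.37 ± 0.14 on the log2 scale, Cyp51 by 1.02 ± 0.2, Insig1 by 0.63 ± 0.12, Sqle by 0.54 ± 0.17 and Hmgcs1 by 0.53 ± 0.099. Lss differed by 0.74 ± 0.25 (adjusted p = 0.06076) and was called under each of the other settings that kept all libraries, DESeq2 among them (adjusted p = 0.0166). Sqle was lost with the replicate number as a block (adjusted p = 0.0656) and was called in only 2 of 8 fits that left out 1 library, while Idi1, Cyp51, Insig1 and Hmgcs1 were called in all 8. The plot of enrichment by cell type shows the shift between the ES cell states beside the other cells.

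**Figure D1:**
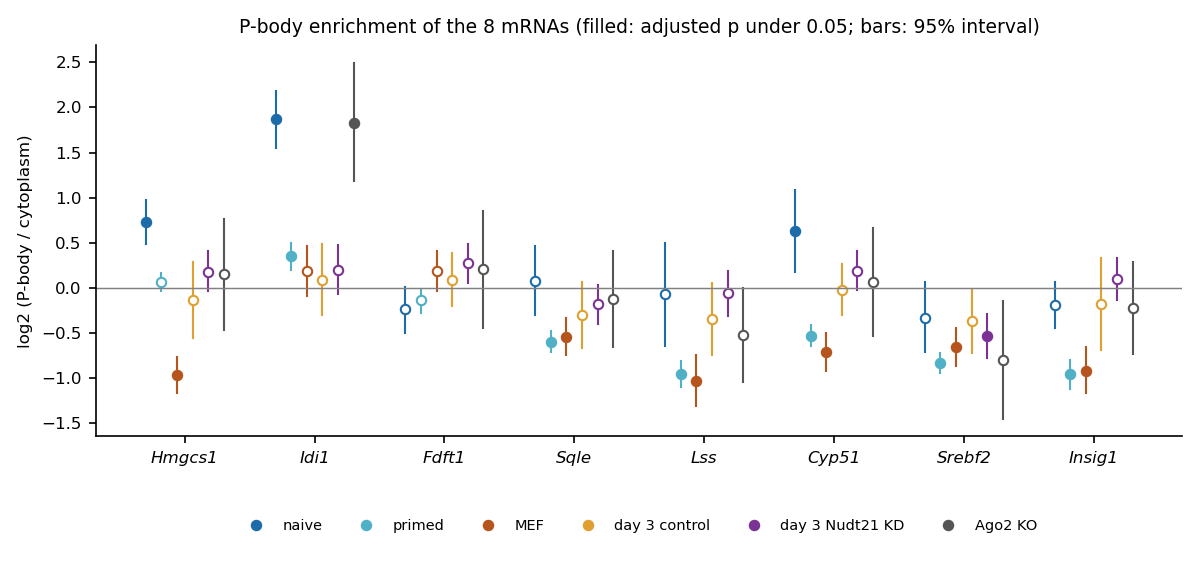
Log2 ratio of P-body to cytoplasm for the 8 mRNAs in 6 kinds of cells, with 2 libraries a group; bars are 95% intervals and filled points passed an adjusted p of 0.05. Idi1 stands highest in naive (1.87) and Ago2 KO (1.83) cells, and Lss and Insig1 lie near -1 in primed cells and MEFs.

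In MEFs, 6 of the 8 mRNAs were depleted from P-bodies and none was enriched, where 28.7% of tested genes were depleted and 26.6% enriched. Hmgcs1 was at 237 and 220 CPM in the cytoplasm and 113 and 114 CPM in P-bodies (-0.97 ± 0.089, adjusted p = 2.226e-05). Lss was lower by a log2 ratio of -1.03 ± 0.12, Insig1 of -0.92 ± 0.11, Cyp51 of -0.71 ± 0.093, Srebf2 of -0.66 ± 0.095 and Sqle of -0.54 ± 0.09. All 6 calls held without any single library. Idi1 (0.19, 95% interval -0.09 to 0.46) and Fdft1 (0.19, -0.04 to 0.41) were not called. Hmgcs1 was thus above its cytoplasmic level in naive P-bodies and below it in MEF P-bodies.

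The contrast of naive with MEF enrichment, which shares the naive libraries with the contrast above, called 5 mRNAs above 0 and 1 below, against 21.5% and 19.8% of tested genes. Hmgcs1 differed by 1.51 ± 0.13, Idi1 by 1.49 ± 0.19, Cyp51 by 1.15 ± 0.21, Lss by 0.77 ± 0.27 and Insig1 by 0.54 ± 0.15. Fdft1 was the exception, at -0.62 ± 0.14. The median over all tested genes in this contrast was -0.17, and a fit of all groups of the table moved Fdft1 to -0.39 (adjusted p = 0.0562), a fit with no filter to -0.37 (adjusted p = 0.114). Lss was lost with a stricter filter on low counts (adjusted p = 0.0529). Sqle, at 0.43 and not called, was called at 0.66 in the fit of all groups (adjusted p = 0.0103) and at 0.68 with no filter (adjusted p = 0.00719). With 1 library left out, Hmgcs1, Idi1 and Cyp51 were called in all 8 fits, Insig1 in 6, Fdft1 in 4 and Lss in 3.

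None of the 8 mRNAs was called in P-bodies of day 3 control cells, where edgeR called only 0.646% of all tested genes. At an unadjusted p under 0.05, 1 of the 8 passed, Srebf2, beside 24.7% of all tested genes. DESeq2 called 2083 genes in place of 102, but none of the 8. The P-body replicates lay apart: Hmgcs1 was at 130 and 86.6 CPM in P-bodies, against 127 and 117 CPM in the cytoplasm, and Insig1 at 41 and 25.5 CPM against 38.8 and 38.4 CPM. With 1 library left out, the ratio ran from -0.39 to 0.08 for Hmgcs1 and from -0.50 to 0.08 for Insig1. Which of the 8 were called then changed, and so did the number called over all tested genes. The contrast of day 3 control with MEF enrichment called Hmgcs1 (0.87 ± 0.2), Lss (0.73 ± 0.22) and Cyp51 (0.73 ± 0.15) above 0 and none below, against 9.59% and 5.13% of tested genes. Which mRNAs were called here changed with the library left out. In those 8 fits the difference ran from 0.54 to 1.06 for Hmgcs1, 0.48 to 0.86 for Lss and 0.59 to 0.79 for Cyp51. Lss was lost with DESeq2 size factors (adjusted p = 0.0522), the replicate block (0.0514) and a fit of all groups (0.0693). Insig1, at 0.78 and not called, was called with DESeq2 (adjusted p = 0.0355), with no filter (0.0126) and in the fit of all groups (0.0233).

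With Nudt21 KD, Srebf2 alone was called among the 8, at 100 and 122 CPM in P-bodies and 153 and 164 CPM in the cytoplasm (-0.53 ± 0.11, adjusted p = 0.008394). In this comparison 12.8% of tested genes were depleted and 9.04% enriched. With 1 library left out, the ratio of Srebf2 ran from -0.67 to -0.41. Which of the 8 were called then changed, and so did the number called over all tested genes. NUDT21 is a subunit of the complex that selects sites of mRNA cleavage and polyadenylation. In the contrast of enrichment between KD and control cells, none of the 8 mRNAs was called, and 0.0118% of all tested genes, 2 in number, were called by edgeR. At an unadjusted p under 0.05, none of the 8 and 4.83% of tested genes passed. DESeq2 called 27 genes and none of the 8. Without day 3 control P-body replicate 1, edgeR called 2185 genes, with Hmgcs1 and Insig1 among them. The differences ranged from -0.14 ± 0.19 for Srebf2 to 0.35 ± 0.22 for Hmgcs1, whose 95% interval ran from -0.13 to 0.83.

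In Ago2 KO ES cells, which lack an Argonaute protein of microRNA complexes, Idi1 was the only mRNA called, where 5.47% of tested genes were enriched and 1.05% depleted. Its level was 133 and 103 CPM in the cytoplasm and 429 and 413 CPM in P-bodies (1.83 ± 0.29, adjusted p = 0.007475). The log2 ratio ran from 1.63 to 1.92 when single libraries were left out, and its call did not hold in every such fit. The number called over all tested genes also moved in these fits. Srebf2 had a ratio of -0.80 ± 0.29 (adjusted p = 0.1316), which DESeq2 (adjusted p = 0.0498) and the replicate block (-0.78, adjusted p = 0.012) called, and Hmgcs1 of 0.15 (95% interval -0.47 to 0.76). In cytoplasm replicate 2 of these cells, 41.6% of reads came from the 10 most abundant genes, against 25% in replicate 1 and 13% to 17.8% in P-bodies. This table was quantified separately, so its ratios stand beside those of naive ES cells without a test.

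**Figure D2:**
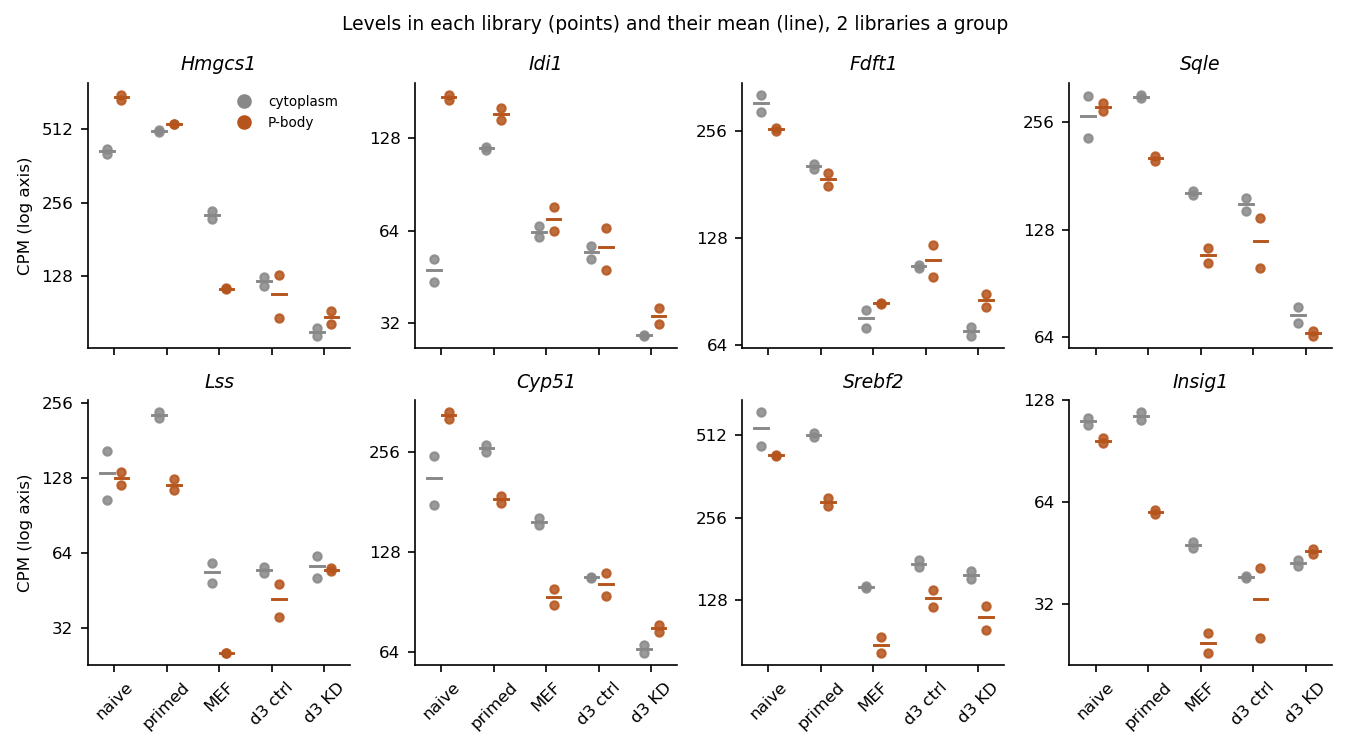
Level of each mRNA in CPM (log axis) in the cytoplasm (grey) and P-body (brown) libraries of 5 kinds of cells; points are libraries and lines their mean, with 2 libraries a group. Idi1 in naive cells is at 43.6 to 51.9 CPM in the cytoplasm and 171 to 177 CPM in P-bodies.

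Of the 55 other genes of the pathway lists, 54 were tested in naive and primed cells and 55 in MEFs. In naive P-bodies 12 of 54 were enriched and 13 depleted, beside 22.6% and 15.4% of all tested genes. Their median log2 ratio there was -0.19, against -0.06 over all tested genes. In primed P-bodies 9 were enriched and 24 depleted, beside 26.5% and 24.2% of all tested genes, and in MEF P-bodies 12 and 26, beside 26.6% and 28.7%. The strongest enrichment in naive cells was that of Ggps1, which makes the geranylgeranyl group from the same isoprenoid units as IDI1 (2.81 ± 0.24); it was also highest in primed cells (1.33 ± 0.069), Nudt21 KD cells (0.65 ± 0.097) and Ago2 KO cells (1.80 ± 0.23). Next in naive cells was Elovl6, a fatty acid elongase (2.11 ± 0.14). Lrp1, a large receptor of lipoproteins and many other ligands, was depleted in naive cells (-1.37 ± 0.15), MEFs (-1.80 ± 0.092), day 3 control cells (-1.15 ± 0.1, adjusted p = 0.04953), Nudt21 KD cells (-1.13 ± 0.092) and Ago2 KO cells (-1.82 ± 0.34). Tm7sf2, a sterol reductase, was also depleted in naive cells (-0.90 ± 0.14).

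In primed cells Fasn, the fatty acid synthase, was depleted (-1.55 ± 0.068), while Osbp, an oxysterol-binding transport protein, was enriched (1.16 ± 0.15). In MEFs, Ch25h, a cholesterol 25-hydroxylase (1.35 ± 0.15), and Pmvk, phosphomevalonate kinase (0.90 ± 0.11), were highest, and Fads2, a fatty acid desaturase (-1.76 ± 0.12), was low beside Lrp1. In Nudt21 KD cells Stard4, a cholesterol carrier (0.52 ± 0.12), was enriched and Lrp8, a lipoprotein receptor (-1.11 ± 0.16), was depleted. In Ago2 KO cells Sc5d, a sterol desaturase (1.19 ± 0.25), was enriched and Fads2 (-1.11 ± 0.26) was depleted.

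By list, fatty acid synthesis genes were depleted most often in primed cells (8 of 11, median -0.99) and MEFs (9 of 11, median -1.24), against medians over all tested genes of 0.00 and 0.03. The 15 other sterol synthesis enzymes split, with 7 enriched and 4 depleted in MEFs and 3 and 6 in primed cells. The largest differences between cell types among called pathway genes were those of Stard4 (2.04 ± 0.2) and Osbp (-1.32 ± 0.37) for naive against primed cells, and Hsd17b7, a sterol ketoreductase (2.45 ± 0.22), and Tm7sf2 (-2.01 ± 0.27) for naive against MEFs. For day 3 control against MEFs they were Fads2 (1.38 ± 0.19) and Gramd1a, which moves cholesterol between membranes (-1 ± 0.21).

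Base composition differed among the 8 transcripts. GC content of the reference transcript was lowest for Idi1 (41.9%), Hmgcs1 (43.1%) and Cyp51 (46.2%), the same 3 that were enriched in naive cells, and rose through Insig1 (48.2%), Sqle (49.3%), Fdft1 (51.8%) and Lss (52.2%) to Srebf2 (57.9%). The median over 14143 tested genes was 51%. Across the 8 mRNAs, Spearman's rho between GC content and the log2 enrichment was -0.881 in naive, -0.643 in primed, -0.738 in Ago2 KO, -0.738 in day 3 control and -0.571 in Nudt21 KD cells, but -0.167 in MEFs. Across all tested genes rho was -0.629 in naive, -0.389 in primed, -0.492 in Ago2 KO, -0.242 in day 3 control, -0.303 in Nudt21 KD cells and -0.0482 in MEFs. The 3′ untranslated part was longer than the median of all genes (919 bases) in 7 of the 8 transcripts, Sqle being the exception at 275 bases. The whole transcript was longer than the median (2930 bases) in 6 of them. Across all tested genes, rho of transcript length with enrichment was 0.22 in naive, -0.0398 in primed and -0.491 in MEF cells. It was -0.235 in Ago2 KO, -0.373 in day 3 control and -0.42 in Nudt21 KD cells. Across the 8 mRNAs it ran from -0.381 in Ago2 KO to -0.0714 in primed cells. For the 3′ untranslated length, rho across all tested genes ran from -0.304 in MEFs to 0.259 in naive cells. These are descriptions over genes that share their libraries.

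**Figure D3:**
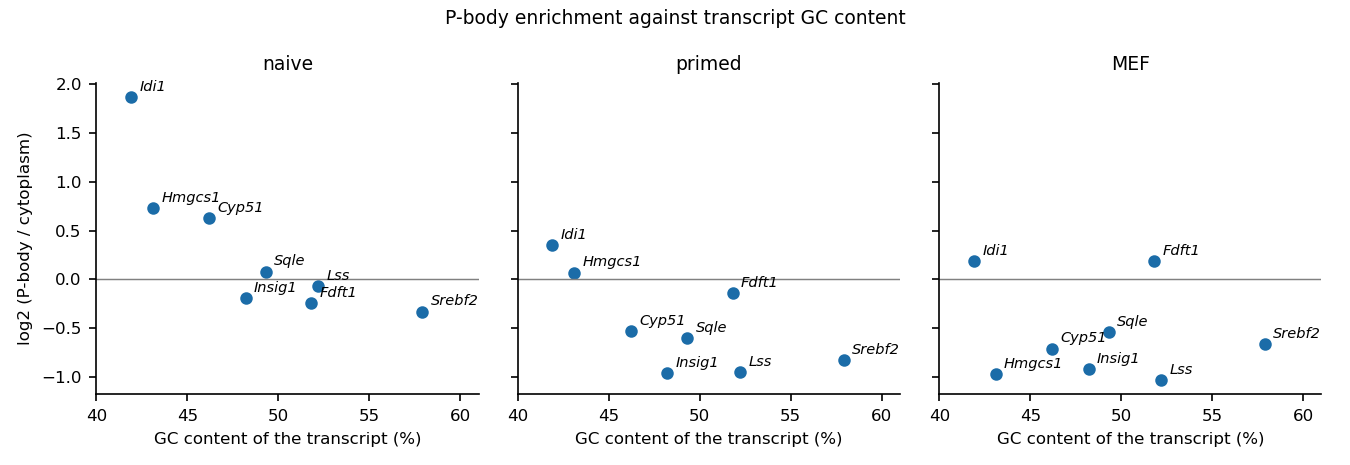
Log2 ratio of P-body to cytoplasm against the GC content of the reference transcript (percent) for the 8 mRNAs in naive, primed and MEF cells. In naive cells the ratio falls from 1.87 for Idi1 (41.9% GC) to -0.33 for Srebf2 (57.9% GC), and in MEFs Hmgcs1, at 43.1% GC, lies at -0.97.

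In the cytoplasmic fraction, a pellet that includes P-bodies, most of the 8 mRNAs were lower in MEFs than in naive ES cells. Of the 8, 6 were lower and Idi1 alone was higher, where 36% of tested genes were lower and 35.9% higher. Fdft1 went from 324 and 291 CPM in naive cells to 80.6 and 71.8 CPM in MEFs (-2.01 ± 0.12), and Srebf2 from 619 and 467 CPM to 145 and 142 CPM (-1.92 ± 0.16). Lss was lower by a log2 difference of -1.33 ± 0.24, Insig1 of -1.21 ± 0.11, Hmgcs1 of -0.86 ± 0.11 and Sqle of -0.72 ± 0.15, the last called in 2 of 4 fits that left out 1 library. Idi1 was higher by 0.41 ± 0.14 (adjusted p = 0.04128) and was lost with DESeq2 (adjusted p = 0.106), with DESeq2 size factors (adjusted p = 0.064) and with the replicate block (adjusted p = 0.0546). Cyp51 (-0.43, 95% interval -0.90 to 0.03) was not called, but was with the replicate block (adjusted p = 0.0451), DESeq2 (0.0403) and a fit of all groups (0.00609). Of the 15 other sterol synthesis enzymes, 11 were lower and 3 higher in MEFs. Dhcr7, which makes cholesterol from its last precursor, had the lowest value of the called pathway genes (-3.75 ± 0.26) and Lrp1 the highest (3.8 ± 0.17).

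Between the ES cell states, 2 of the 8 were higher in primed cytoplasm and 1 lower, where 21.6% of tested genes were higher and 22.1% lower. Idi1 rose from 51.9 and 43.6 CPM to 120 and 117 CPM (1.33 ± 0.14, adjusted p = 0.001303), and Lss from 164 and 104 CPM to 223 and 234 CPM (0.79 ± 0.22, adjusted p = 0.03121). Fdft1 fell by 0.58 on the log2 scale, with an SE of 0.11. Idi1 in P-bodies was at 177 and 171 CPM in naive and 161 and 147 CPM in primed cells, so its lower ratio in primed cells went with a higher cytoplasmic level. With 1 library left out, Idi1 ran from 1.23 to 1.46, Lss from 0.51 to 1.16 and Fdft1 from -0.64 to -0.50. Only Idi1 was called in every one of these fits, and the number called over all tested genes also moved. Soat1, which esterifies cholesterol for storage (2.52 ± 0.21), and Ebp, a sterol isomerase (-2.31 ± 0.2), were the extremes among the other called pathway genes.

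Per kilobase of transcript, the scale on which genes can be set side by side, Hmgcs1 was the most abundant of the 8 in naive (120 ± 4.24 CPM per kb, SD, n = 2), primed (146 ± 1.41) and MEF (66 ± 3.46) cytoplasm. In naive cells Srebf2 (107 ± 21.2), Sqle (96.2 ± 18.1) and Fdft1 (83.2 ± 6.29) followed, and neighbours among these 4 overlapped between replicates. Cyp51 (54.3 ± 13.2), Insig1 (41.1 ± 1.63), Lss (28.7 ± 9.05) and Idi1 (15.8 ± 1.91) were each apart from the next. Idi1 was lowest in naive (15.8 ± 1.91), primed (39.2 ± 0.636) and Nudt21 KD cytoplasm (9.63 ± 0.0283), Sqle was highest in day 3 control cells (54.5 ± 3.32) and Srebf2 in Nudt21 KD cells (31.2 ± 1.56), and Lss was lowest in MEFs (11.4 ± 1.56) and day 3 control cells (11.7 ± 0.495). In total RNA of control ES cells Hmgcs1 (106 ± 9.24 CPM per kb, SD, n = 3) and Srebf2 (84.2 ± 3.91) were highest and Lss (16.2 ± 0.551) was lowest.

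During reprogramming, 3 of the 8 mRNAs were lower and 2 higher in the cytoplasm of day 3 control cells than in MEFs, where 33.7% of tested genes were lower and 35.5% higher. Hmgcs1 fell from 237 and 220 CPM to 127 and 117 CPM (-0.85 ± 0.065), Cyp51 from 162 and 154 CPM to 107 and 108 CPM (-0.49 ± 0.063) and Insig1 from 48.8 and 47 CPM to 38.8 and 38.4 CPM (-0.25 ± 0.083). Fdft1 rose from 80.6 and 71.8 CPM to 108 and 106 CPM (0.55 ± 0.072), and Srebf2 by 0.34 ± 0.062. Srebf2 (adjusted p = 0.0827) and Insig1 (adjusted p = 0.106) were lost in a fit of all groups of the table. The extremes among the other called genes were Abca1, a cholesterol exporter (3.31 ± 0.073), and Scd2, a fatty acid desaturase (-1.78 ± 0.058).

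Nudt21 KD lowered the cytoplasmic level of 5 of the 8 mRNAs at day 3 and raised none, where 25% of tested genes were lower and 24.6% higher. All 5 encode enzymes: Sqle, Idi1, Cyp51, Hmgcs1 and Fdft1. The paper reports that 3′ untranslated parts became shorter globally after Nudt21 suppression. Levels in CPM are not corrected for transcript length, so shorter mRNAs and fewer mRNAs cannot be told apart in this comparison. Sqle went from 157 and 144 CPM in control cells to 77.6 and 70.2 CPM (-1.02 ± 0.075, 0.493-fold), and Idi1 from 57 and 51.7 CPM to 29.2 and 29.1 CPM (-0.89 ± 0.095). Cyp51 differed by -0.71 ± 0.073, Hmgcs1 by -0.68 ± 0.074 and Fdft1 by -0.60 ± 0.073. The groups of each of the 5 did not overlap, but the share of all tested genes in that state was not counted. With 1 library left out, the differences ran from -1.08 to -0.95 for Sqle and -0.96 to -0.82 for Idi1. They ran from -0.73 to -0.68 for Cyp51, -0.74 to -0.62 for Hmgcs1 and -0.62 to -0.57 for Fdft1.

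Lss, at 52.8 and 56.2 CPM in control and 62.1 and 50.7 CPM in KD cytoplasm, was not called (0.06, 95% interval -0.14 to 0.25), nor were the regulators Srebf2 (-0.13, -0.28 to 0.02) and Insig1 (0.14, -0.05 to 0.33). Among the 15 other sterol synthesis enzymes, 11 were lower and 1 higher in KD cells, with a median difference of -0.36 against -0.01 over all tested genes. Mbtps2, the protease that makes the second cut in SREBP, was the highest of the called pathway genes (2.81 ± 0.095), and Fads2 the lowest (-2.24 ± 0.078). The summed MEF markers moved in the same comparison, from 4600 and 4690 CPM in control to 1520 and 1530 CPM in KD cytoplasm, and the 3 pluripotent markers from 182 and 194 CPM to 405 and 429 CPM; the part of this shift in the results was not tested.

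**Figure D4:**
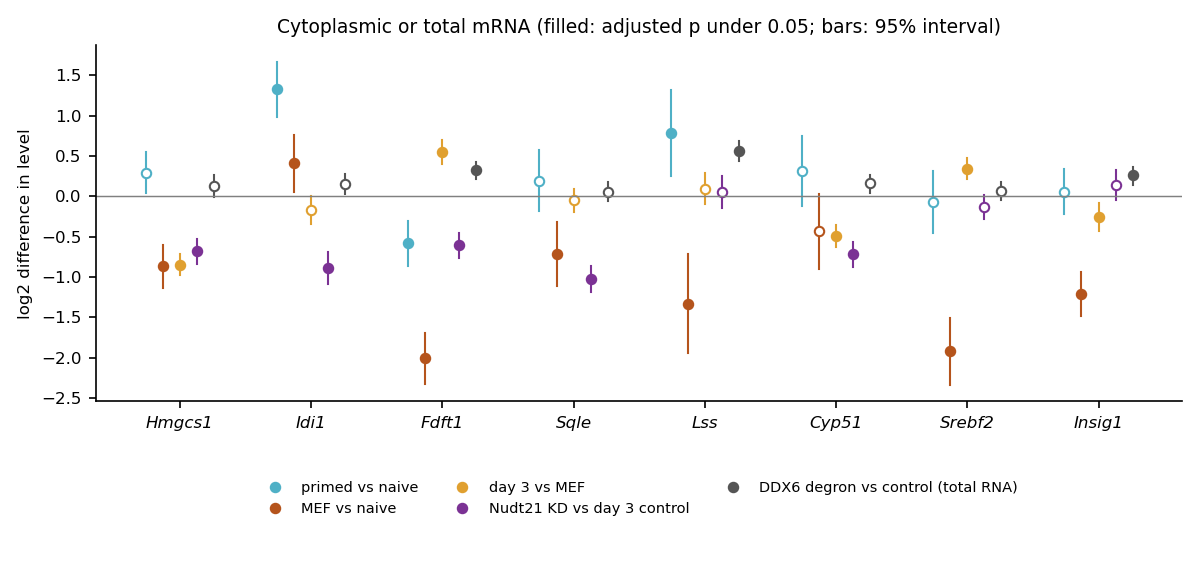
Log2 difference in mRNA level for 4 comparisons of cytoplasm and 1 of total RNA; bars are 95% intervals and filled points passed an adjusted p of 0.05. In Nudt21 KD cells 5 enzyme mRNAs lie between -0.60 and -1.02 and Lss, Srebf2 and Insig1 lie near 0.

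Ribosome occupancy, the log2 ratio of polysome-bound to total RNA, differed from 0 for all 8 mRNAs in control ES cells: 6 were lower and 2 higher, where 24.1% of tested genes were lower and 18.8% higher. The ratio is of relative amounts after TMM scaling, so it does not give the share of an mRNA that was bound. By the study's methods, the polysome-bound RNA was a pool of fractions that contained ribosomes. Hmgcs1 was at 386, 385 and 329 CPM in total RNA and at 184, 176 and 187 CPM in polysomes (-1.01 ± 0.07, 0.496-fold). Cyp51 was at 158, 160 and 147 CPM in total RNA and at 78.2, 73.6 and 80 CPM in polysomes (-1.01 ± 0.065). Lss (-0.75 ± 0.066), Sqle (-0.42 ± 0.065), Srebf2 (-0.40 ± 0.066) and Fdft1 (-0.31 ± 0.061) were also lower in polysomes. Insig1 was higher, at 208, 195 and 187 CPM in total RNA and 278, 272 and 255 CPM in polysomes (0.44 ± 0.063), as was Idi1 (0.24 ± 0.068), at 167, 163 and 146 CPM and 187, 180 and 197 CPM. For each of the 8 the polysome and total libraries did not overlap, but the share of all tested genes in that state was not counted.

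Of the 3 mRNAs enriched in P-bodies of naive cells, Hmgcs1 and Cyp51 were low in polysomes of control cells and Idi1, with the highest P-body ratio, was not. The control cells were of the tagged line, unlike the naive cells with P-body libraries, and library kit and quantification differed too. These values stand beside each other without a test. Srebf2, Lss, Sqle and Fdft1 were low in polysomes without being enriched in naive P-bodies. Across the 8 mRNAs, Spearman's rho with occupancy was 0.0238 for GC content and -0.476 for transcript length. Across all tested genes it was -0.083 and -0.39. Of the 54 other pathway genes tested, 27 were lower and 6 higher in polysomes. The lowest were Acly (-2.31 ± 0.063), which makes the acetyl-CoA for both sterols and fatty acids, and Fasn (-2.25 ± 0.063); the highest were Insig2, the paralog of Insig1 (0.36 ± 0.079), and Lrp8 (0.32 ± 0.11).

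After DDX6 loss the same 6 mRNAs were lower and the same 2 higher in polysomes, where 26.8% of tested genes were lower and 24% higher. Hmgcs1 was at -1.10 ± 0.052, Cyp51 at -1 ± 0.055, Lss at -0.86 ± 0.053, Sqle at -0.58 ± 0.046, Srebf2 at -0.38 ± 0.04 and Fdft1 at -0.31 ± 0.042, while Insig1 was at 0.42 ± 0.043 and Idi1 at 0.28 ± 0.043. All 8 calls in both conditions held without any single library. Among the other pathway genes Acly (-2.46 ± 0.044) and Fasn (-2.34 ± 0.048) were again lowest, and Ggps1 (0.50 ± 0.056) and Lrp8 (0.33 ± 0.069) highest.

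The change of occupancy on DDX6 loss was tested as the difference of these ratios, and no gene was called, neither among the 8 nor among all tested genes (0%). At an unadjusted p under 0.05, 1 of the 8 passed, Sqle (-0.16 ± 0.074), beside 5.16% of all tested genes; DESeq2 called 4 genes and none of the 8. The differences ran from that of Sqle to 0.04 ± 0.079 for Idi1. The 95% interval was -0.17 to 0.19 for Cyp51, -0.28 to 0.09 for Hmgcs1 and -0.12 to 0.20 for Idi1, the 3 mRNAs enriched in naive P-bodies, which leaves a fall of more than 0.28 or a rise of more than 0.20 outside the interval of each of them.

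**Figure D5:**
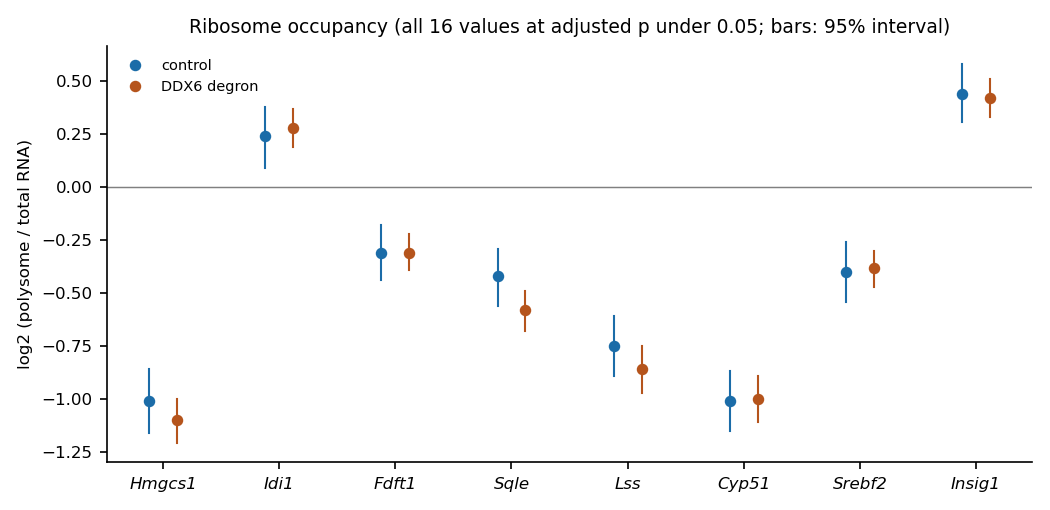
Log2 ratio of polysome-bound to total RNA for the 8 mRNAs in control and DDX6 degron ES cells, with 3 libraries a group; bars are 95% intervals. In both conditions Hmgcs1 and Cyp51 lie near -1 and Insig1 and Idi1 above 0, and the conditions differ by at most 0.16.

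In total RNA, DDX6 loss raised 3 of the 8 mRNAs and lowered none, where 1.24% of tested genes were higher and 2.07% lower. Lss, the ring-closing enzyme, went from 76.8, 77.3 and 72.6 CPM in control to 111, 117 and 109 CPM in degron cells (0.56 ± 0.058, 1.48-fold, adjusted p = 0.0007896). Fdft1 rose from 175, 183 and 179 CPM to 227, 227 and 221 CPM (0.33 ± 0.051, adjusted p = 0.007491). Insig1 rose from 208, 195 and 187 CPM to 236, 241 and 232 CPM (0.26 ± 0.054, adjusted p = 0.02661). Each of the 3 degron libraries was above each control library for 7 of the 8 mRNAs, a state found in 12.6% of tested genes. The gap was under 1 CPM for Sqle and Srebf2, and both overlapped when CPM were scaled to library totals without TMM, which left 5 of the 8 apart beside 11.5% of tested genes. Hmgcs1, at 386, 385 and 329 CPM against 416, 386 and 407 CPM, overlapped. The other 5 were not called, at 0.13 ± 0.062 for Hmgcs1, 0.16 ± 0.053 for Cyp51, 0.15 ± 0.059 for Idi1, 0.07 ± 0.051 for Srebf2 and 0.06 ± 0.055 for Sqle.

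Of the 15 other sterol synthesis enzymes, 7 were higher in total RNA after DDX6 loss and none was lower, with a median of 0.28 against 0.01 over all tested genes. They were Mvd (0.56 ± 0.079), Pmvk (0.49 ± 0.066), Fdps (0.46 ± 0.059), Nsdhl (0.46 ± 0.075), Tm7sf2 (0.42 ± 0.1), Dhcr7 (0.38 ± 0.054) and Acat2 (0.33 ± 0.051), which act from the first condensation of acetyl-CoA to the last reduction. These 7 were all named after their values were seen. Among 11 genes of fatty acid synthesis 4 were higher, and of the sensing and processing list none of 10 was called. Lrp8 had the highest value of the called pathway genes (0.58 ± 0.09). The count of the 8 depended on the libraries: Lss was called without any single library, whereas it was the only one called without degron replicate 1 or replicate 2 and with the replicate block (Fdft1 adjusted p = 0.0549, Insig1 0.108), and 5 were called without control replicate 3. Over all tested genes 509 were called, which went to 6 without degron replicate 1 and to 3373 without control replicate 3.

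Across the 20 P-body and cytoplasm libraries, the level of each of the 8 mRNAs had a Pearson's r with the mean profile of the other 7 from 0.688 for Idi1 to 0.959 for Hmgcs1. Over the 28 pairs the median r was 0.833. The libraries fall into ES cells and MEF-derived cells, and within them the median r was 0.399 over 8 libraries and 0.179 over 12 libraries. The 10 other genes with the profile most like that of the 8 were Acsl3, Aldoc, Nectin2, Vangl2, Bag4, Nphs1, Tspan13, Depdc5, Bcam and Cep85, with r from 0.96 to 0.983 over 20 libraries. Acsl3, which activates long-chain fatty acids, was first (0.983), with r of 0.768 within ES cells and 0.877 within MEF-derived cells. These are descriptions of libraries that share cell types and preparations.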

How the data were processed

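RNA was sequenced from 36 mouse samples. Reads of the P-body and cytoplasm libraries were aligned to mm10 with HISAT2, and the authors deposited estimated counts per refGene gene from featureCounts, in which 17.6% to 25.7% of the values of a library were fractions of a read; how shared reads were divided is not given in the sources used here. The deposited expected counts of the polysome and Ago2 KO tables came from salmon, with 5.05% to 6.19% and 11.6% to 13.1% of values not whole. The study's methods give SMART-Seq v4 Ultra and Nextera XT kits for P-body libraries unless its text names another. Another 10 deposited tables hold fold changes and p-values from DESeq2 comparisons of the study and were not used. No column of per-sample values was left unmatched.

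Counts were rounded, and the titles gave the groups. edgeR (version 4.0.16, R 4.3.3) gave a two-sided quasi-likelihood test for 18 comparisons, after TMM scaling, on genes with at least 10 reads over the libraries of the fit, with only the groups compared and with Benjamini-Hochberg adjustment over all tested genes. Differences between cell types or treatments in enrichment or occupancy were interaction contrasts. SEs and 95% intervals came from the same test. A call means an adjusted p under 0.05. The test was also run on counts drawn with known changes. Those counts had the same spread for every gene, so that run does not show how the test handles the spread of these replicates. DESeq2 (version 1.42.0) and the other settings are alternatives.

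The 8 genes, the 55 genes of the pathway lists, the markers and the motifs were chosen with earlier results of these data known. All 8 were named in each comparison. Of the other pathway genes with a mean of at least 10 CPM, the 2 highest and 2 lowest called ones were named in each P-body and occupancy comparison and the highest and lowest called one elsewhere. Some results that the rule would name are not reported here. For likeness, log2 CPM with a prior count of 2 were centred and scaled per gene. Sequence features came from GENCODE M21 transcripts with both untranslated parts and the longest coding part, and promoters from RefSeq on GRCm38.p6. Plots used matplotlib (version 3.10.9, Python 3.11.15).

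Total RNA was part of the polysome lysates, and cytoplasm was an aliquot taken before the sort, so fractions have a shared origin. Replicate numbers are shared between groups, but no label says what a number marks or that it ties fractions of the same preparation. Apart from Ago2 KO, correlations across genes of the deviations of same-numbered libraries from their group means ran from -0.106 to 0.324. The numbers were thus not read as pairs. In Ago2 KO the correlation was 0.542, with 2 pairs. The unblocked fit was kept as the main one there too, with the replicate block given beside it. The study calls its sequencing replicates biological, and for polysomes each came from its own plates; for the other libraries nothing used here says what was separate, so p-values measure only the spread between these libraries, which may be technical. All replicate pairs differed by more than sampling noise, with a chi-square over its degrees of freedom between 1.78 and 306.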

Additional observations from a re-analysis of the deposited data

Results flagged for a closer look

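Effects under the same contrast differed between cell types for 14 values, each tested as a difference of P-body enrichment with edgeR's quasi-likelihood test and Benjamini-Hochberg adjustment over all tested genes. Naive exceeded primed enrichment, on the log2 scale, by 1.37 for Idi1 (adjusted p = 0.0004339), 1.02 for Cyp51 (0.006106), 0.63 for Insig1 (0.005316), 0.54 for Sqle (0.04518) and 0.53 for Hmgcs1 (0.005241). Naive exceeded MEF enrichment by 1.51 for Hmgcs1 (2.641e-05), 1.49 for Idi1 (0.0001738), 1.15 for Cyp51 (0.001443), 0.77 for Lss (0.04351) and 0.54 for Insig1 (0.01504), and the difference was -0.62 for Fdft1 (0.006505). Day 3 control exceeded MEF enrichment by 0.87 for Hmgcs1 (0.01884), 0.73 for Lss (0.04639) and 0.73 for Cyp51 (0.01176). These contrasts share naive or MEF libraries with each other.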

How the results depend on the processing

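Over the 8 mRNAs and 18 comparisons, 144 log2 values were fitted again under each alternative. Side of the threshold and sign were kept by 139 of them with DESeq2, 141 with DESeq2 size factors in edgeR, 141 with the filterByExpr filter, 139 with no filter on low counts and 126 of 136 in a fit of all groups of a table. The change of Fdft1 occupancy on DDX6 loss, 0.00, became 0.01 with filterByExpr and 0.02 with no filter. With all groups in a single fit, 1 mRNA was called in place of 0 in day 3 control P-bodies and 3 in place of 5 for cytoplasm of day 3 control cells against MEFs. DESeq2 called 2 in place of 1 in Ago2 KO cells. The causes were not tested. The lowest count of any of the 8 mRNAs in a library of the P-body and cytoplasm table was 517 reads, and precision is further limited by the 2 libraries a group.

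No label says what a replicate number marks. With the replicate number as a block, 136 of the 144 values kept their call, 2 mRNAs in place of 1 were called in Ago2 KO cells (Srebf2 was added) and 1 in place of 3 in total RNA after DDX6 loss (Fdft1 and Insig1 were lost), and the count for day 3 control against MEF enrichment went from 3 to 2; in the other 15 comparisons the count stayed as it was, although Lss took the place of Sqle for naive against primed enrichment and Cyp51 that of Idi1 for cytoplasm of MEFs against naive cells. Over all genes the block called 802 in place of 102 in day 3 control, 4178 in place of 1095 in Ago2 KO, 82 in place of 509 in total RNA after DDX6 loss, 1 in place of 2 for the KD change of enrichment and 6 in place of 0 for the occupancy change.

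Counts over all genes also moved under other settings. In day 3 control P-bodies they were 2083 with DESeq2, 202 with filterByExpr, 1940 with no filter and 3308 with all groups. In Ago2 KO they were 1713 with DESeq2, 2643 with no filter and 716 with DESeq2 size factors, which raised the share of enriched genes among those called to 93.6%. For the KD change of enrichment they were 27 with DESeq2 and 62 with no filter, and for the occupancy change 4 and 16. In total RNA after DDX6 loss they were 810 with DESeq2, 863 with no filter and 1138 with all groups. With 1 library left out they ran from 2056 to 10018 in naive (5941 with all libraries), 82 to 8752 in day 3 control, 1017 to 5729 in KD, 446 to 5617 in Ago2 KO and 5595 to 9976 in MEF P-bodies, from 2293 to 7089 for naive against primed (4349), 259 to 5546 for day 3 control against MEF (2575) and 0 to 2185 for KD against control enrichment, from 0 to 52 for the occupancy change, from 2242 to 9799 for primed against naive cytoplasm (7056) and from 6 to 3373 in total RNA after DDX6 loss. Scaling to library totals without TMM, chosen after seeing the data, left 5 in place of 7 of the 8 mRNAs apart in total RNA after DDX6 loss. All groups together gave 5128 in place of 8209 in primed, 2100 in place of 3501 in KD P-bodies and 4877 in place of 7934 in KD cytoplasm.

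With 1 library left out at a time, the number of the 8 mRNAs called ran from 1 to 7 in naive P-bodies, 0 to 5 in day 3 control, 0 to 3 in Nudt21 KD and 0 to 3 in Ago2 KO P-bodies. It ran from 4 to 7 for naive against primed, 4 to 8 for naive against MEF, 0 to 5 for day 3 control against MEF and 0 to 2 for KD against control enrichment, 1 to 6 for primed against naive and 5 to 8 for MEF against naive cytoplasm, and 1 to 5 in total RNA after DDX6 loss. A fit without a library assumes that a lone remaining one varies like the other group. Signs turned in 41 of 816 such fits, all for values not called with every library in. In naive P-bodies Sqle ran from -0.09 to 0.29 and Lss from -0.35 to 0.30. In day 3 control P-bodies Hmgcs1 ran from -0.39 to 0.08, Idi1 from -0.09 to 0.26, Fdft1 from 0.00 to 0.18, Cyp51 from -0.08 to 0.04 and Insig1 from -0.50 to 0.08. Lss ran from -0.18 to 0.07 with KD. In Ago2 KO, Hmgcs1 ran from -0.07 to 0.27, Fdft1 from -0.06 to 0.38 and Cyp51 from -0.08 to 0.11. Srebf2 ran from -0.04 to 0.48 for naive against MEF enrichment. For day 3 control against MEF enrichment Idi1 ran from -0.31 to 0.10 and Fdft1 from -0.22 to 0.03. For the KD change Idi1 ran from -0.04 to 0.32, Sqle from -0.03 to 0.34 and Srebf2 from -0.28 to 0.03. For the occupancy change Fdft1 ran from -0.02 to 0.02, Cyp51 from -0.05 to 0.09, Srebf2 from -0.04 to 0.05 and Insig1 from -0.07 to 0.01. In cytoplasm Srebf2 ran from -0.24 to 0.15 for primed against naive, Sqle from -0.11 to 0.01 and Lss from -0.06 to 0.22 for day 3 control against MEF, and Lss from -0.08 to 0.19 for KD against control.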
